A study of Rattus norvegicus with 102 samples.

Results

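Transcription in hippocampal area CA1 was compared between 24 aged and 10 young male Fischer 344 rats, an inbred strain widely used in ageing research. The members were every CA1 library whose label gave an age class, which gave 34 libraries. The series holds 3 subfields with 34 libraries each, and the other libraries came from CA3 and the dentate gyrus (DG) of the same 34 rats. Young rats were 5 to 6 months old and aged rats 17 to 22 months old. Of the aged rats, 12 were classed as aged unimpaired (AU) and 12 as aged impaired (AI) from a water maze probe trial, and both classes were set together against the young rats. Rat identifiers began either with R9 (5 young and 11 aged rats) or with R1 or R2 (5 young and 13 aged rats), and this identifier series entered the fit of all 34 libraries as a covariate. All rats had been tested in the maze before the tissue was taken, so no group is naive to training, and the labels name no treatment. The tissue was dissected CA1 from a single hippocampus per rat and held neurons, glia and vessels together. In such bulk tissue, fewer cells of a type and less RNA per cell cannot be told apart.

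The complement system is a cascade of secreted proteins that tags material for removal by phagocytes. C1q starts the classical pathway, C4 and C3 are cleaved and deposited downstream of it, and in brain C1q comes mainly from microglia while C4 and C3 are made by several glial and neuronal types. Microglia, the resident macrophages of brain, sense their surroundings through receptors such as Csf1r, Cx3cr1 and Trem2, and can present antigen on MHC class II. Astrocytes carry the intermediate filament protein Gfap, and both cell types are known for altered gene expression in the aged hippocampus.

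Of 16385 genes with a mean normalised read count of at least 5 in CA1, 4 passed an adjusted p of 0.05, which is 0.0244% of those tested, and all 4 were higher in aged rats (limma, Benjamini-Hochberg over all genes). They were the 3 rows of the table for complement C4 and Gfap. No gene passed in the other direction. At an unadjusted p under 0.05, 448 genes (2.73%) were higher and 243 (1.48%) lower, which is 4.22% in all. The median log2 FC over all genes was -0.03, and 43.2% of genes had a log2 FC above 0. The sections that follow therefore read counts of list members against these shares.

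The libraries held 5360495 to 21467303 recovered reads (median 10349525.5). Aged minus young, mean depth differed by -1656750 reads (permutation test, two-sided, p = 0.214). In the R9 series it was -4186390 reads (exact permutation test, two-sided, p = 0.0156), whereas in the R1-R2 series the aged mean was 709545 reads higher (exact permutation test, p = 0.779); whether the series differed in this was not tested. The mean number of genes above 0 differed by -743, aged minus young (permutation test, two-sided, p = 0.0329), by -784 in the R9 series (exact permutation test, two-sided, p = 0.0137) and by -678 in the R1-R2 series (exact permutation test, two-sided, p = 0.398). In 4 aged libraries (AU rats R2230 and R2232, AI rats R2233 and R9874) only 15153 to 16688 genes were above 0, against 18222 to 19799 in the other 20 aged libraries and 18479 to 19663 in the young. These 4 held 5360495 to 9351266 reads, and several well expressed genes, Cd74 and Col4a5 among them, stood at 0 in at least 1 of them. Their haemoglobin level was high: Hba-a2 was 2564 to 7129 there, 318 to 3488 in the other aged rats, which reaches into that range, and 127 to 1095 in the young. No young library was of this kind, so results are given for all 34 libraries and, as an alternative chosen after seeing the data, for the 30 without these 4. CA1 markers had the highest score of the 3 subfield marker sets in 32 of 34 libraries. The exceptions were AU rat R9869 and AI rat R9872. Leaving both out gave 5 calls, of which 4 were higher, and the fifth, Cartpt, lower.

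**Figure D1:**
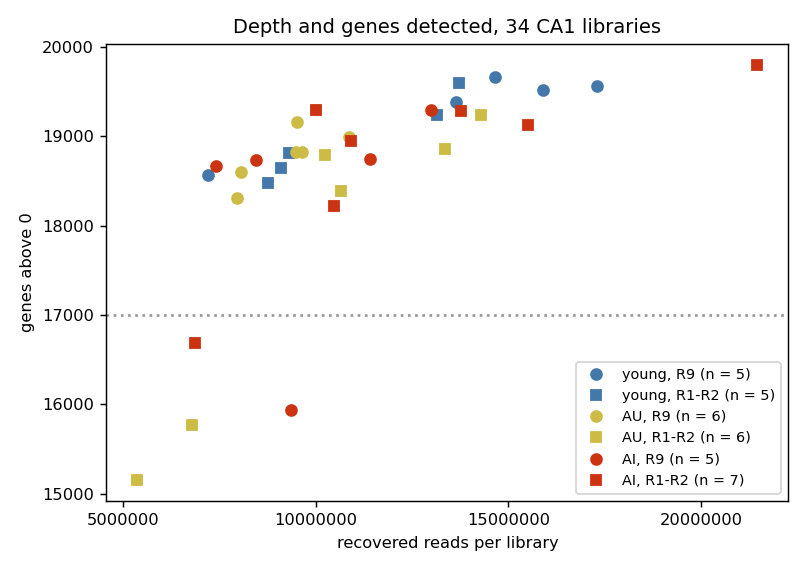
Recovered reads per CA1 library (x axis) against the number of genes above 0 (y axis), with colour for group and shape for identifier series. The dotted line marks 17000 genes; 4 aged libraries, at 15153 to 16688 genes, lie under it and no young library does.

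Without those 4 libraries, 30 of 16368 genes passed the same test (0.183%), all of them higher in aged rats, and they included the 4 genes called with all 34. At an unadjusted p under 0.05, 726 genes (4.44%) were then higher and 258 (1.58%) lower. Of the 30 genes called, 19 belonged to lists of immune genes. These lists overlap, and their joint share of all genes tested was not counted. List by list, 5 of 28 complement, 5 of 13 MHC class II and 6 of 30 homeostatic microglial genes were called, against 0.183% of all genes. In the lysosome list 4 of 51 were called, and 0 of 26 MHC class I and 0 of 35 interferon-stimulated genes. The lists were chosen with earlier results of these data known. All 30 had the same sign in both identifier series, but they were called in a fit that holds both, so this is no independent support. Beyond the C4 rows and Gfap they were C1qa and C3 of complement, Cd74, RT1-Ba, RT1-Bb, RT1-Da and RT1-Db1 of MHC class II, Csf1r, Cx3cr1, Trem2, Tyrobp, Laptm5, Cd68, Cd4, Blnk and Pld4 of myeloid cells, Naglu, Npc2 and Rnaset2 of the lysosome, Cdh1, Bpifb4, Birc7, Mefv and Gna15, and the loci AABR07006310.1 and AABR07054266.1. Those of the 30 that lie outside the rule for named genes are given here because their values had been seen. Keeping all 34 libraries but weighting each by its fit to the model gave 150 calls (0.915%), 140 higher and 10 lower.

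Complement C4 gave the clearest age difference. Rat C4 is encoded by near-identical neighbouring genes, so reads can be divided between the rows of the table arbitrarily, and the rows are treated here as one family. How alike the copies are can be seen in their promoters. The last 120 bases before the start of C4a (chr20:4010237-4010356, plus strand, GRCr8) and the stretch of C4b that aligns with it (chr20:4201854-4201973, plus strand, ending 5 bases before the C4b start) are 95.8% identical in RefSeq. Capitals mark the 5 bases that differ.
C4a: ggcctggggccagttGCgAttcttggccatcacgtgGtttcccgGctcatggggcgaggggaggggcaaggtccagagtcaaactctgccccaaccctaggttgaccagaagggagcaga
C4b: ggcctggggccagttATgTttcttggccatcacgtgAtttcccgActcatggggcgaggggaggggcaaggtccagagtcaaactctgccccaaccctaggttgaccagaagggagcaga
The core letters of a motif for PU.1, a myeloid transcription factor, were searched as GAGGAAG and, for the other strand, CTTCCTC. None of the 3 promoters of called genes (C4a, C4b and Gfap) held them in the 250 bases before the start, and 3425 of 33469 rat promoters (10.2%) did.

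The first C4a row (ENSRNOG00000000443) had a normalised read count of 53.1 at the lowest, 109 at the median and 151 at the highest in the young, and 94.7, 217 and 416 in the aged rats. In 21 of 24 aged rats it lay above the highest young rat, and the log2 FC was 1.04 (SE 0.17, limma adjusted p = 0.00928), a 2.06-fold difference. At least 12 aged rats above the highest young rat was reached by 226 of the genes tested, or 1.38%.

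The second C4a row (ENSRNOG00000047657) ran from 52.4 through a median of 91.9 to 122 in the young and from 97.0 through 185 to 401 in the aged rats. Its log2 FC was 1.03 (SE 0.18, limma adjusted p = 0.00928), with 20 aged rats above every young rat. The C4b row (ENSRNOG00000030729) ran from 32.3 through 66.2 to 77.3 in the young and from 57.5 through 116 to 235 in the aged rats, and its log2 FC was 0.93 (SE 0.17, limma adjusted p = 0.0195). That call was lost without young rat R1922, R1923, R9876 or R9879, with an adjusted p of up to 0.116, and the second C4a call without R1923 (limma adjusted p = 0.0546). Across the 34 libraries, which share depth and groups, the rows correlated with Pearson's r of 0.876 to 0.921.

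Adding the 3 rows gives a level that does not depend on how reads were divided between them, provided each read was counted once. The handling of reads that map to several genes is not given, so this could not be checked. The summed level was 159 to 346 in the young (258 ± 60.3, SD, n = 10) and 262 to 1052 in the aged rats (533 ± 178, SD, n = 24). The groups overlapped little, with 22 of 24 aged rats above the highest young rat. Between the group means of the log2 values the difference was 1.01 (permutation test, two-sided, p = 2e-05, the smallest that 100000 permutations can give). The 3 rows were already called on these same libraries. This p and those within each series below are not corrected for that choice and are no separate evidence. The levels rest on 143 to 578 reads per young and 236 to 1112 per aged library. Within the R9 series all 11 aged rats lay above all young rats, and the difference was 0.996 (exact permutation test, two-sided, p = 0.000458). Within the R1-R2 series 11 of 13 aged rats did, and it was 1.04 (exact permutation test, two-sided, p = 0.0021). The exceptions were AI rat R1931, at 262, and AU rat R1930, at 264. The highest rat of all, AI rat R2231 at 1052, was among the lowest aged rats in C3 (814) and in Gfap (14569).

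**Figure D2:**
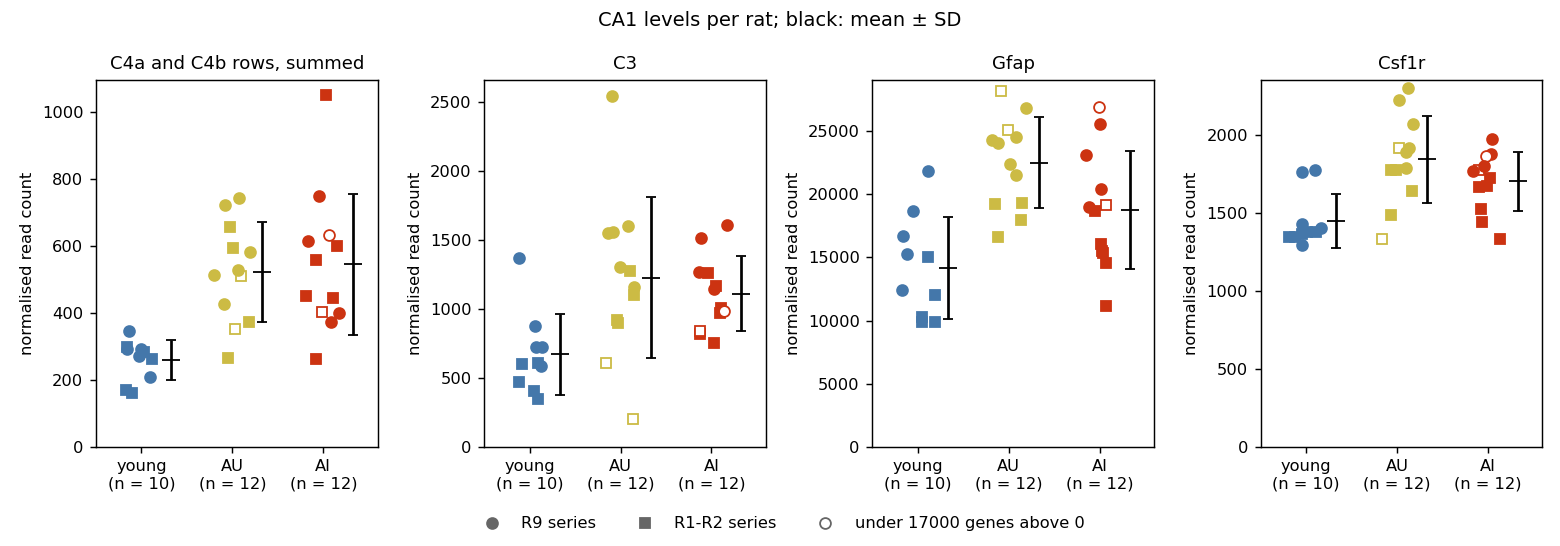
Normalised read counts per rat (y axes) of the summed C4 rows, C3, Gfap and Csf1r in young, AU and AI rats; circles are R9 and squares R1-R2 rats, open symbols are the 4 libraries with under 17000 genes above 0, and bars give the mean ± SD. Summed C4 runs from 159 to 346 in the young and from 262 to 1052 in the aged rats, and AU and AI rats overlap in every panel.

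C3, the component on which all complement pathways converge, lay at 346, 603 and 1369.8 (lowest, median, highest) in the young and at 199, 1149.9 and 2541 in the aged rats. The highest young value came from rat R9780 and the next was 872, a level that 19 of 24 aged rats exceeded. Over all 34 libraries the log2 FC of C3 was 0.82 (SE 0.18) and did not pass (limma adjusted p = 0.162). Over the 30 libraries C3 rose by a log2 FC of 0.97 (SE 0.12, limma adjusted p = 9.71e-05). The lowest aged value, in rat R2232, was among those left out.

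The C1q chains, which form the recognition molecule of the classical pathway, showed the same dependence. C1qa ran from 560.4 through 769 to 1001 in the young and from 163 through 949 to 1288 in the aged rats, with a log2 FC of 0.17 (SE 0.19). Over 30 libraries, where the lowest aged value was 763, C1qa rose by 0.38 (SE 0.07, limma adjusted p = 0.00338). C1qb (0.31) and C1qc (0.37) had similar log2 FC there and did not pass (limma adjusted p = 0.0797 for each). Proteases and regulators of the pathway gave smaller values, with a log2 FC over 34 libraries of 0.13 for C1r, 0.03 for factor B (Cfb) and -0.29 for C1s, whose lowest aged value was 0. Of the 28 complement rows tested, only the 3 C4 rows passed as higher, and none passed as lower. The log2 FC was above 0 in 19 rows and below 0 in 9. An unadjusted p under 0.05 was reached by 6, all higher, with the 3 C4 rows among them. The list median was 0.09, against -0.03 over all genes. Over 30 libraries 5 passed, all higher, the 3 C4 rows among them, and the median was 0.21.

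Gfap (ENSRNOG00000002919) had normalised read counts of 9860.2, 13706 and 21816 at the lowest, median and highest young rat. In the aged rats Gfap had 11155, 19862 and 28174. It was the called gene with the most overlap, since only 10 of 24 aged rats exceeded the highest young rat, and its log2 FC was 0.58 (SE 0.10, limma adjusted p = 0.0172). In the R9 series young rats lay at 12390 to 21816 and aged rats at 19006 to 26940. In the R1-R2 series young rats lay at 9860.2 to 15022 and aged rats at 11155 to 28174. The call was lost without any 1 of the young rats R1922, R1923, R2175 and R9876, where the adjusted p reached 0.0794. It was also lost in the fit without the identifier series as covariate. Over 30 libraries the log2 FC was 0.50 and still passed (limma adjusted p = 0.004). 

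Few other astrocyte genes had comparable values. Of 24 genes of reactive astrocytes, Gfap was the only call, and 3 had an unadjusted p under 0.05, all higher, the others being Ggta1 (log2 FC 0.36) and the transcription factor Stat3 (0.22). Vimentin (Vim), the other filament protein of reactive astrocytes, had a log2 FC of 0.06 (SE 0.25). The list median was 0.06 and turned to -0.10 in the R1-R2 series alone. Among 23 genes of homeostatic astrocytes none passed, and 16 had a log2 FC above 0. The 3 with an unadjusted p under 0.05 were all higher, namely Slc14a1 (0.26), Atp1b2 (0.24) and Glul (0.19). The list median was 0.03 and turned to -0.04 in the R1-R2 series alone. Among the members below 0, the water channel Aqp4 was at -0.09 (SE 0.18), the glutamate transporter Slc1a2 at -0.10 (SE 0.12) and the gap junction gene Gja1 at -0.12 (SE 0.13). The summed level of the reactive list, most of which is Gfap, was 12974 to 26472 in the young and 13997 to 32576 in the aged rats. The summed level of the homeostatic list was 101208 to 135377 in the young and 83408 to 149040 in the aged rats, so the groups overlapped almost fully.

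Microglial genes had values mostly above 0. Over 34 libraries none of 30 homeostatic microglial genes passed, but 12 had an unadjusted p under 0.05, all higher, against 2.73% of all genes. The list median was 0.24, with 22 of 30 above 0 in both identifier series, a share that was 26.5% over all genes. Over 30 libraries 6 passed, all higher, 30 of 30 were above 0 (48.9% of all genes) and the median was 0.32. The summed level of the list ran from 7808 through 9006 to 11729 in the young and from 7537 through 10920.5 to 14498 in the aged rats, with 6 aged rats above the highest young rat.

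Csf1r, the receptor that keeps microglia alive, was the tightest of them. It lay at 1297, 1378 and 1776 in the young and at 1332, 1775 and 2303 in the aged rats, with a log2 FC of 0.30 (SE 0.06) that narrowly missed over 34 libraries (limma adjusted p = 0.0766) and passed over 30 (0.0133). The fractalkine receptor Cx3cr1, which was at 296 to 422 in the young, was above that range in 14 of 24 aged rats and rose by a log2 FC of 0.42 over 30 libraries (SE 0.08, limma adjusted p = 0.00588). Trem2, a lipid-sensing receptor of microglia, had a young median of 127 and an aged median of 197. Its log2 FC over 30 libraries was 0.54 and that of its signalling adaptor Tyrobp was 0.63 (limma adjusted p = 0.00455 and 0.00753). Over all 34 the same genes had a log2 FC of 0.35, 0.40 and 0.48, with an unadjusted p of 0.0106, 0.0205 and 0.0104, and did not pass.

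Genes of activated microglia had a lower median, 0.12 over 34 libraries. Of 23 tested, none passed over 34 libraries and 3 had an unadjusted p under 0.05, among them Gpnmb (log2 FC 0.64) and the lysosomal protein Cd68 (0.73). Cd68 ran from 9.73 through 12.5 to 22.2 in the young and from 0 through 27.9 to 51.8 in the aged rats. It was the only gene of this list to pass over 30 libraries (log2 FC 0.95, SE 0.19, limma adjusted p = 0.012). Apoe had a log2 FC of -0.10 (SE 0.13) and Spp1 of -0.13 (SE 0.36). Of 20 genes of Fc receptors and the phagocyte oxidase, 7 had an unadjusted p under 0.05, all higher. Over 30 libraries 3 passed, all higher (Tyrobp, Pld4 and Trem2). The inhibitory Fc receptor Fcgr2b was at 38.8 to 146 in the young and 40.2 to 182 in the aged rats (log2 FC 0.50, SE 0.21, unadjusted p = 0.0215). These lists share members with the microglial lists and are not separate evidence.

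MHC class II genes, which present extracellular antigen, had the highest median of the immune lists. Cd74, the invariant chain of class II, was at 52.5 to 895 in the young (median 93.4) and at 0 to 967 in the aged rats (median 400.3). The highest young value was that of rat R9780, and the next highest was 285, which 15 of 24 aged rats exceeded. Over 34 libraries the log2 FC of Cd74 was 1.38 (SE 0.58, unadjusted p = 0.0236), and over 30 it rose by 1.88 (SE 0.30, limma adjusted p = 0.00262). The chains RT1-Ba, RT1-Bb, RT1-Da and RT1-Db1 had young medians of 14.9, 13.8, 21.9 and 10.3 and aged medians of 70.4, 74.5, 94.1 and 67.8. In each of them the highest young rat was again R9780 and at least 1 aged library stood at 0. Over 30 libraries their log2 FC was 2.01, 2.06, 1.955 and 2.54 (limma adjusted p = 0.00455, 0.00503, 0.00338 and 0.00402), and every one of the 20 aged rats was above the young median. Of the 13 class II genes tested, 6 had an unadjusted p under 0.05 over 34 libraries, all higher, and the list median was 0.58 with either set of libraries. Ciita, the master regulator of class II, was near the detection limit at 0 to 8.17 in the young and 0 to 20.6 in the aged rats.

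MHC class I genes had smaller values. Of 26 tested, 5 had an unadjusted p under 0.05, all higher, the list median was 0.24, and none passed with either set of libraries. Nlrc5, the class I counterpart of Ciita, had the smallest p: it was at 4.46 to 30.3 in the young and 11.8 to 68.1 in the aged rats (log2 FC 0.88, SE 0.24, unadjusted p = 0.000787). The invariant light chain B2m was at -0.03 (SE 0.16). Class I rows of the rat belong to a multigene family, so their reads may be divided between paralogs. Interferon-stimulated genes had a median of 0.02 over 35 members, 3 with an unadjusted p under 0.05, all higher, and none called. Of these, Irf7 had a log2 FC of 0.21 (SE 0.18). Their median was 0.21 over 30 libraries and had the other sign in 9 of 56 alternatives, namely a pseudocount of 0.5, AU rats alone, and the fits without R2231, R2235, R2184, R2237, R9865, R1922 or R2221.

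Genes of the lysosome, where phagocytosed material is degraded, were mostly above 0 with small values. Of 51 tested, 14 had an unadjusted p under 0.05, all higher, 46 had a log2 FC above 0, and the median was 0.14 (0.15 over 30 libraries). Rnaset2, a lysosomal ribonuclease outside this list, ran from 76.6 through 136 to 161 in the young and from 96.6 through 199.7 to 341 in the aged rats, with 20 aged rats above every young rat. Its log2 FC was 0.67 (SE 0.14, limma adjusted p = 0.0766), and over 30 libraries 0.64 (limma adjusted p = 0.0205). Hexa had a log2 FC of 0.33, progranulin (Grn) of 0.25, and cathepsin Z (Ctsz) of 0.42, and none of these passed. Among the abundant proteases, cathepsin B (Ctsb) was at 0.02 (SE 0.10) and cathepsin D (Ctsd) at 0.20 (SE 0.11). The sterol carrier Npc2 had a young range of 823 to 1543 and an aged range of 343 to 2077, and passed over 30 libraries only (log2 FC 0.47, SE 0.07, limma adjusted p = 0.00262).

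**Figure D3:**
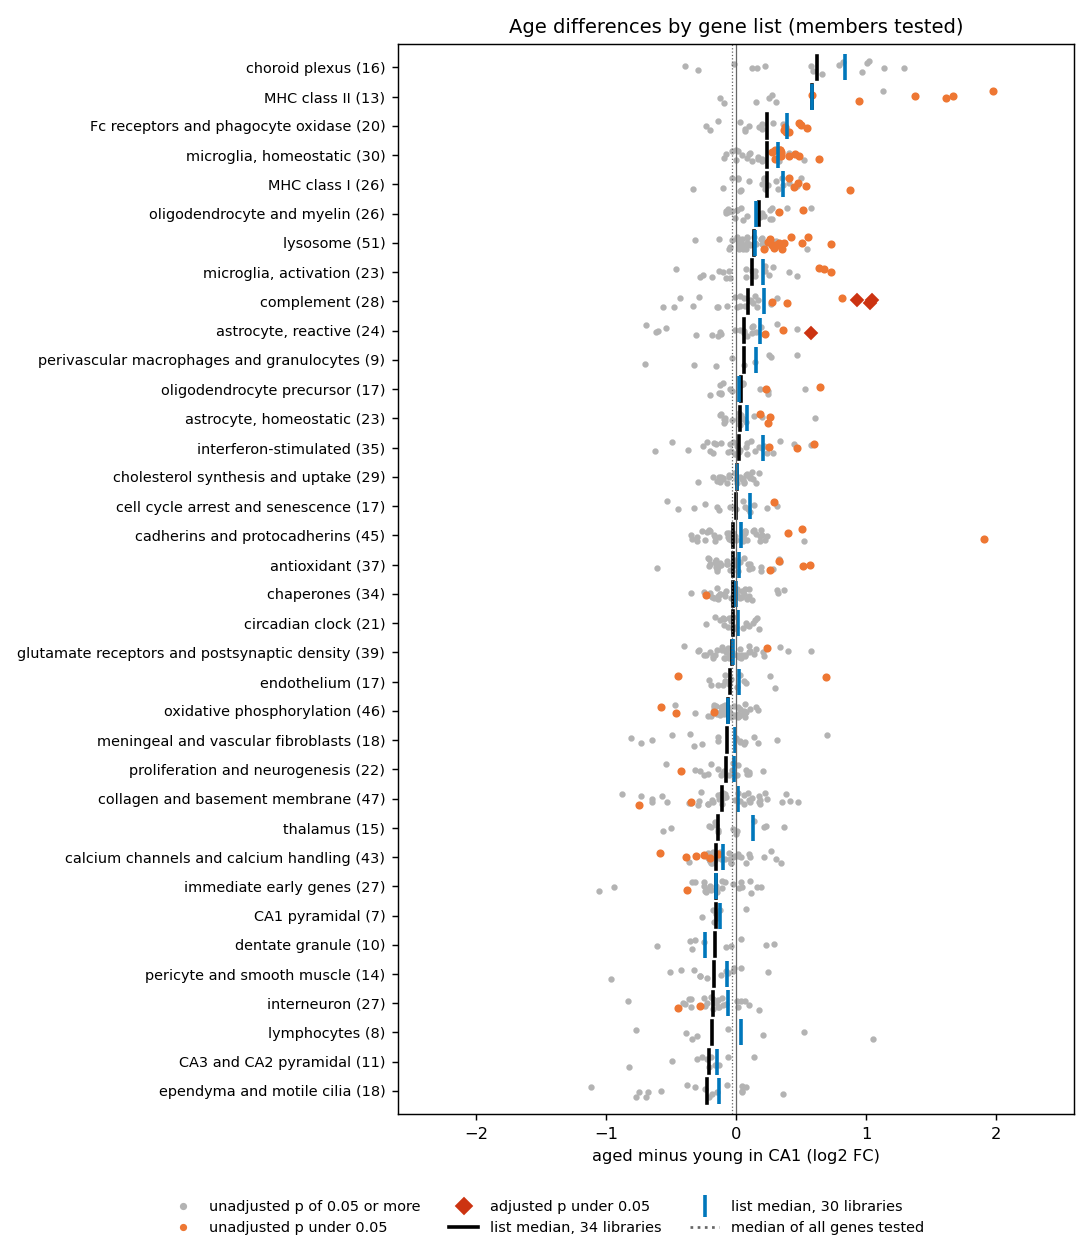
Aged minus young log2 FC in CA1 (x axis) of every tested member of each gene list with at least 7 members tested (y axis, number tested in parentheses). Black bars are list medians over 34 libraries and blue bars over 30, and the dotted line is the median of all genes tested, -0.03. The called genes (red) lie in the complement and reactive astrocyte lists, and MHC class II, Fc receptor and homeostatic microglial genes lie mostly right of 0.

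A set of 24 genes named by the study as higher with age in all 3 subfields, together with Col4a5 as lower, was chosen partly on these samples, so it is no independent evidence of direction. All 24 had a log2 FC above 0 in CA1, from 0.22 to 1.91 with a median of 0.41, and 23 of 24 were above 0 in both identifier series. Gfap was the only one to pass over 34 libraries, and 19 had an unadjusted p under 0.05. Over 30 libraries 11 passed, all higher: Gfap, Cdh1, Csf1r, C3, Bpifb4, Cx3cr1, Pld4, Trem2, Cd74, Npc2 and Cd4. The young rat R9780 gave the highest young value in 18 of the 24, and one of the 4 libraries with few genes gave the lowest aged value in 18 of the 24.

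The largest difference in the set over 34 libraries was that of Cdh1, the epithelial cadherin, a cell adhesion protein. Cdh1 ran from 2.15 through 17.4 to 139.9 in the young and from 17.9 through 56.1 to 209 in the aged rats. All 24 aged rats were above the young median, but the highest young rat, R2175, exceeded most of them, and the next highest young value was 53.1. Its log2 FC was 1.91 (SE 0.39, limma adjusted p = 0.0721), and over 30 libraries 1.85 (limma adjusted p = 0.0247), where that of Cd74 was larger (1.88). Leaving out young rat R2175 alone gave 2.25 (limma adjusted p = 0.00502). Cdh23 (log2 FC 0.51, SE 0.14) and Pcdhb4 (0.40, SE 0.12) did not pass with either set of libraries. These 3 were the only ones of the 45 cadherins and protocadherins tested with an unadjusted p under 0.05, and the list median was -0.02. The sign of that median varied with the setting.

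Gpr183, an oxysterol receptor, had a log2 FC of 0.64, and Nckap1l, an actin regulator of blood cells, had 0.38. Slc14a1, the urea transporter of astrocytes, was at 508 to 612 in the young, and 16 of 24 aged rats lay above that range (log2 FC 0.26, SE 0.08, unadjusted p = 0.003). Wdfy4 was the member with a sign that differed between series (0.61 in R9 and -0.15 in R1-R2), and 17 of 24 aged rats were above the young range of 26.7 to 56.7 while the lowest stood at 0. Col4a5, a chain of basement membrane collagen, was at 38.0, 69.8 and 105 in the young and at 0, 51.4 and 97.4 in the aged rats. Its log2 FC was -0.88 (SE 0.44, unadjusted p = 0.0526) over 34 libraries and -0.35 (SE 0.15) over 30.

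The same rats gave CA3 and DG libraries, which allowed the age effect in CA1 to be compared within rats. No gene passed in the difference between CA1 and CA3 or between CA1 and DG (limma on within-rat differences, 0 of 16452 and 0 of 16301), with 159 genes (0.966%) and 442 genes (2.71%) at an unadjusted p under 0.05. Both shares were smaller than chance alone would give, and the lack of calls does not show equal age effects. Each subfield fitted alone gave 1 call in CA3 (0.00607%) and 21 in DG (0.13%), a contrast in counts that is not a tested difference. C4a (ENSRNOG00000000443) had a log2 FC of 1.04 in CA1, 0.97 in CA3 (SE 0.36) and 1.05 in DG (SE 0.19). Gfap had 0.58, 0.44 (SE 0.15) and 0.51 (SE 0.11), and C3 had 0.82, 0.75 (SE 0.18) and 0.90 (SE 0.15). The CA1 minus DG difference was 0.00 (SE 0.19) for this C4a row and 0.07 (SE 0.16) for Gfap. For Cdh1 the values were 1.91, 0.87 (SE 0.53) and 2.57 (SE 0.30), and its CA1 minus CA3 difference of 1.04 had an SE of 0.68. All 24 genes of the study's set were above 0 in CA3, against 40.5% of all genes, and in DG, against 49%. Within the set no unadjusted p for a subfield difference (limma on within-rat differences) was below 0.116. The study chose these genes as higher in all 3 subfields of these rats, so none of these values is independent evidence.

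**Figure D4:**
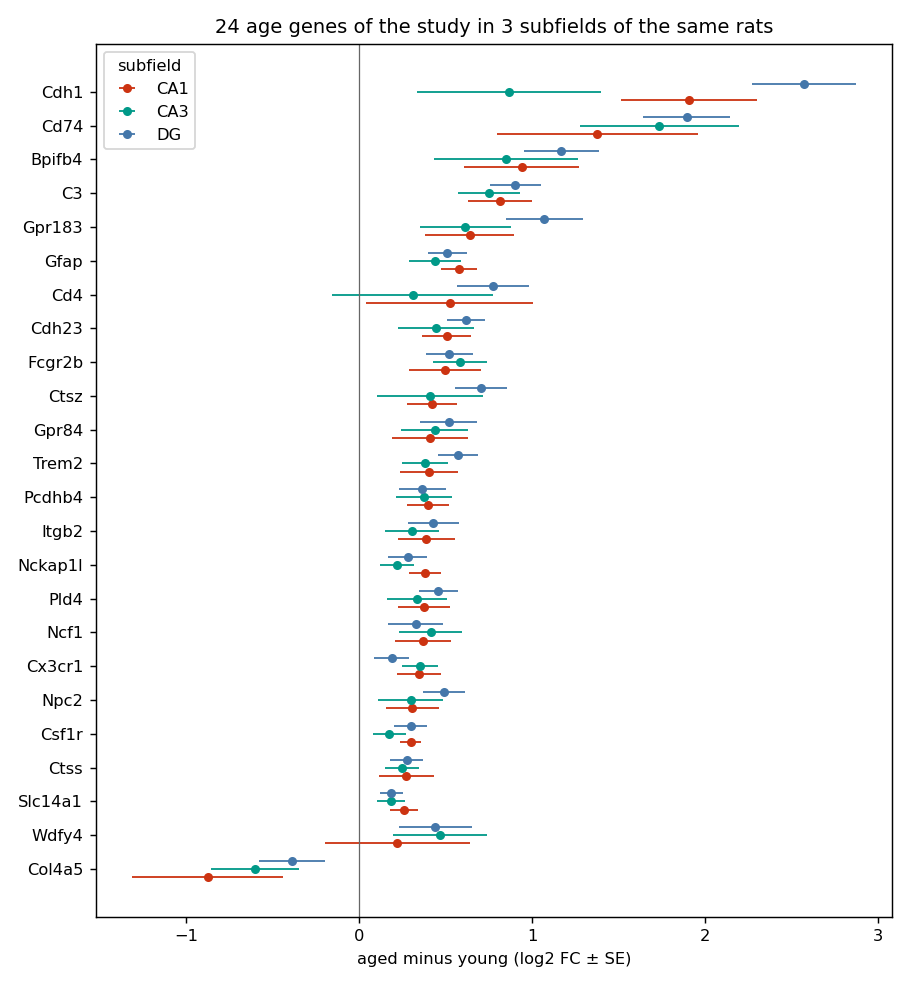
Aged minus young log2 FC ± SE (x axis) of 24 genes of the study's set (y axis) in CA1, CA3 and DG of the same 34 rats. The genes listed as higher lie right of 0 in all subfields, and the CA1 errors are widest for Cd74, Cd4, Wdfy4 and Col4a5, each of which has an aged CA1 library at 0.

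No gene passed for a difference of the age effect between the identifier series (limma interaction, 0 of 16385 called, 74 or 0.452% at an unadjusted p under 0.05; edgeR also gave 0, with 103 genes at an unadjusted p under 0.05). Without the 4 aged libraries with few genes the interaction again gave 0 calls, with 261 genes at an unadjusted p under 0.05. These shares were smaller than chance alone would give, and the lack of calls does not show equal age effects. Each series fitted alone gave 0 calls, with 428 genes at an unadjusted p under 0.05 in R9 and 259 in R1-R2. The first C4a row had a log2 FC difference of -0.08 (R9 minus R1-R2, SE 0.35), and for Gfap it was -0.17 (SE 0.21). Within the study's set the smallest unadjusted p for a series difference was 0.0852. In the set's median the R9 series lay at 0.51 and the R1-R2 series at 0.38.

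**Figure D5:**
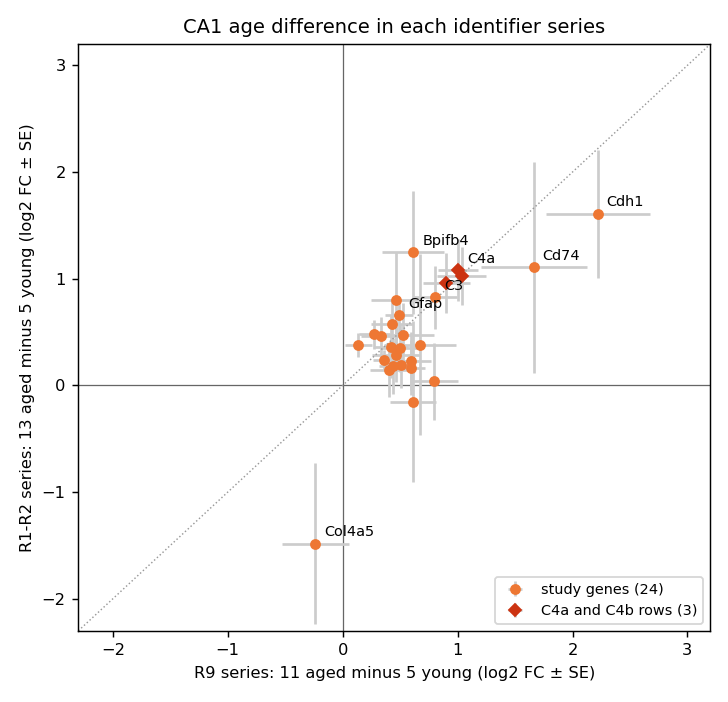
Aged minus young log2 FC ± SE in CA1 in the R9 series (x axis, 5 young and 11 aged) against the R1-R2 series (y axis, 5 young and 13 aged) for 24 genes of the study's set and the C4 rows. The C4 rows lie on the diagonal near 1, and among genes listed as higher Wdfy4 alone lies below 0 in R1-R2.

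AU and AI rats were each set against the same young rats. The first C4a row had a log2 FC of 1.05 in AU (SE 0.19) and 1.03 in AI rats (SE 0.20), with medians of 229 and 198. Gfap had medians of 23230 in AU and 18848 in AI rats and a log2 FC of 0.70 (SE 0.11) and 0.46 (SE 0.11). It was the only call of AU against young rats (limma adjusted p = 0.0477), and AI against young rats gave no call, with 965 genes at an unadjusted p under 0.05. Cdh1 had a log2 FC of 1.64 in AU (SE 0.50) and 2.15 in AI rats (SE 0.47). The 2 comparisons share their young rats, and the difference between AU and AI rats was not tested here.

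Genes of myelin were above 0 in small amounts. Of 26 oligodendrocyte and myelin genes, 2 had an unadjusted p under 0.05, both higher: the gap junction gene Gjb1 (log2 FC 0.52) and the transcription factor Sox10 (0.33). The list median was 0.18 (0.15 over 30 libraries). Myelin basic protein (Mbp) was at 30673 to 110820.0 in the young and at 43426 to 135100.0 in the aged rats (log2 FC 0.26, SE 0.13), whereas Mog was at -0.06 (SE 0.16). Among 47 genes of collagens and basement membrane, 2 had an unadjusted p under 0.05, both lower: Col11a1 (-0.75, SE 0.20) and Col4a2 (-0.34). That list's median was -0.11 over 34 and 0.02 over 30 libraries. Col1a1 had a young range of 17.8 to 536 and an aged range of 0 to 951, a spread within each age far above the difference between them.

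Iron and redox genes contained a few higher members. The ferritin chains, which store iron, had a log2 FC of 0.33 for Fth1 (SE 0.08, unadjusted p = 0.000266) and 0.57 for Ftl1 (SE 0.23, unadjusted p = 0.0195). Fth1 was at 4943 to 11371 in the young and 6877 to 14730.0 in the aged rats. Of 37 antioxidant genes, 4 had an unadjusted p under 0.05, all higher, and none passed; the median was -0.02.

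Several neuronal lists had a median below 0, with no call. Of 43 genes of calcium channels and calcium handling, 6 had an unadjusted p under 0.05, all lower, against 1.48% of all genes, and the median was -0.15 (-0.10 over 30 libraries). The ryanodine receptor Ryr1, which releases calcium from internal stores, was at 202 to 405 in the young and at 58.0 to 423 in the aged rats, 14 of which lay below the lowest young rat (log2 FC -0.59, SE 0.21, unadjusted p = 0.00764). The N-type channel Cacna1b had a log2 FC of -0.20 (SE 0.07) and the uniporter Mcu of -0.31. The L-type channel Cacna1c was at -0.15 (SE 0.16) and the more abundant Ryr2 at -0.20 (SE 0.12).

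Immediate early genes, which neurons transcribe after activity, had a median of -0.15, with 16 of 27 below 0 in both series, a share that was 36.3% over all genes. Junb alone had an unadjusted p under 0.05 (log2 FC -0.38, SE 0.13). Arc was at -0.24 (SE 0.17), Egr1 at -0.24 (SE 0.16) and Npas4 at -1.05 (SE 0.54), with Npas4 at -0.59 over 30 libraries. Glutamate receptor and postsynaptic genes had a median of -0.03 over 39 members, with Gria1 at -0.17 (SE 0.10) and Grin1 at 0.02 (SE 0.10). Of 27 interneuron genes, Gad1 (log2 FC -0.28, SE 0.11) and Gad2 (-0.45, SE 0.22), the enzymes of GABA synthesis, had an unadjusted p under 0.05. The list median was -0.18 over 34 and -0.06 over 30 libraries, and somatostatin (Sst) went from -0.39 to -0.13 between them.

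Of 46 genes of oxidative phosphorylation, 3 had an unadjusted p under 0.05, all lower, with Cox5a at -0.58 (SE 0.17, unadjusted p = 0.00144), and the median was -0.06. Chaperones (34 genes, median -0.03), circadian clock genes (21, -0.03), cholesterol genes (29, 0.00) and genes of cell cycle arrest and senescence (17, 0.00) had at most 1 member at an unadjusted p under 0.05 each. Among 22 genes of proliferation and neurogenesis, doublecortin (Dcx) had a log2 FC of -0.42 (SE 0.17), and the median was -0.08.

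Markers of other cells in the dissection were checked in the same libraries. The erythroid list had 3 of its rows tested, and Hba-a2 was at 127, 444 and 1095 in the young and at 318, 862 and 7129 in the aged rats (log2 FC 1.27, SE 0.37, limma adjusted p = 0.648). The embryonic gene Hbe1 was at 0 in every library. With Hba-a2 as a covariate, chosen after seeing the data, the 3 C4 rows had a log2 FC of 0.92, 0.95 and 0.88 (limma adjusted p = 0.0931, 0.0931 and 0.134) and Gfap of 0.42 (limma adjusted p = 0.364), so none of the 4 passed. C3 was the only call of that fit, with a log2 FC of 1.1 (limma adjusted p = 0.0289). The medians of homeostatic microglial, MHC class II and Fc receptor genes were 0.36, 0.72 and 0.49 in that fit. Without the covariate they were 0.24, 0.58 and 0.24. Members at an unadjusted p under 0.05, all higher, went from 12 to 16 in the homeostatic microglial list and from 14 to 12 in the lysosome list. The list of 29 lymphocyte genes had 8 tested, of which 3 had a log2 FC above 0 and 5 below. Their median was -0.18 (0.04 over 30 libraries). The summed level of the list was 234 to 445 in the young and 224 to 522 in the aged rats, with 10 aged rats above the young range. Cd4 is part of this sum, and its median was 93.6 in the young and 187 in the aged rats. Cd4, which rat microglia and macrophages also express, is the member of that list that passed over 30 libraries (log2 FC 0.87, SE 0.16, limma adjusted p = 0.00547). The part of blood or of infiltrating cells in the immune gene values was not tested.

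Choroid plexus genes had the highest list median, 0.62 over 16 members, but none had an unadjusted p under 0.05 and the median was 1.4 in the R9 and -0.24 in the R1-R2 series. Their summed level was 1438 to 4142 in the young and reached 198212, 165007 and 30913 in 3 aged libraries, while the medians of 1992 and 1996 were close together. Transthyretin (Ttr), the defining choroid gene, ran from 0 to 164720.0 in the aged rats. Ependymal, pericyte, fibroblast, perivascular macrophage and thalamic lists had no member at an unadjusted p under 0.05, with medians of -0.22, -0.17, -0.07, 0.06 and -0.14, and 2 of 17 genes of oligodendrocyte precursors did (median 0.03). The endothelial list had 1 higher, Cd34 (log2 FC 0.69), and 1 lower, Itm2a (-0.45). CA1 pyramidal markers had a median of -0.16 over 7 genes, CA3 and CA2 markers of -0.21 over 11 and dentate granule markers of -0.16 over 10, with no member at an unadjusted p under 0.05. Wfs1, a CA1 marker, was at 3528 to 12943 in the young and 1177 to 13265 in the aged rats. Including as a covariate the CA1 marker score minus the mean of the CA3 and DG marker scores left 4 calls.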

How the data were processed

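The authors isolated total RNA, selected poly-A RNA and sequenced Ion Proton libraries. Per the labels' processing notes and the study's methods, reads were aligned to rn5 (Rnor_5.0) with TopHat2 and Bowtie2 in Partek, and counted per gene with featureCounts 1.4.4. The deposited values are a signal: gene counts divided by DESeq2 size factors, for 26689 genes in 3 subfields of 34 rats. Every value was a whole multiple of its library's step (100%, tolerance 1e-06), so whole reads were recovered. Strand setting and handling of reads that map to several genes are not given in the sources used here.

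Values were tested as log2(value + 1) for genes with a CA1 mean of at least 5 with limma 3.58.1 (eBayes with trend, R 4.3.3), identifier series as covariate, two-sided, Benjamini-Hochberg over all genes. Log2 FC on this scale understates differences of low genes. edgeR 4.0.16 and DESeq2 1.42.0 on recovered reads were alternatives, and code was tested on simulated data. Single values used 100000 permutations, or all of them within a series. Subfield differences were within-rat. Of the genes without a symbol in the table, 453 were named from the study's own gene tables. Named genes were the calls with the same sign in both series, the leading members of each list, the study's 25 age genes and subfield markers, of which some are not reported here. List members named for an unadjusted p were picked after their values were seen. Members and lists were chosen with earlier results of these data known. Rats were separate animals. Depth was 5360495 to 21467303 reads per library, and intervals on counts cover counting error only.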

Additional observations from a re-analysis of the deposited data

Results flagged for a closer look

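In the 10 young libraries, 122 named genes and library measures were searched for a highest or lowest rat that stood apart from the others (gap to the nearest rat over the whole range above 0.466), and 18 are given; chance gives about 1 in 20 such groups. Rat R9780 was the highest young rat for C3 (1369.8), Bpifb4 (43.6), Trem2 (242), Cd74 (895), Ncf1 (157), Npc2 (1543), Sgk1 (2661) and Ctsb (6631). Rat R2175 was the highest for Cdh1 (139.9), Lyz2 (657), Igf2 (1985.5), Sparc (8212) and Ptgds (37712). Rat R9877 was the highest for Ttr (1840.0), rat R2221 for Wfs1 (12943), and rat R9879 for Pcp4 (1769) and Hydin (309). The lowest young value that stood apart was that of Dnah9 (571), in rat R9876. These values were kept in every fit except those that left out a rat.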

How the results depend on the processing

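The 4 called rows stayed above 0 in all 56 alternatives for the age effect, including each of the 34 fits that left out 1 library. The number of calls was 4 and became 0 in the R9 series alone, 0 in the R1-R2 series alone, 0 for AI against young, 1 for AU against young (Gfap), 1 in one fit of all libraries of the 3 subfields (Blnk, and none of the 4), 1 with Hba-a2 as covariate (C3, and none of the 4), 19 with DESeq2, 21 with DESeq2 and no filter, 30 without the 4 aged libraries with few genes, 81 with DESeq2 without them, and 150 with array weights. Among the 81 were the choroid plexus genes Ttr, F5, Slc4a5, Sostdc1 and Tmem72. Over all 34 libraries the summed choroid level reached 198212, 165007 and 30913 in 3 aged libraries, while the young and aged medians were close. Leaving out 1 library gave 1 to 8 calls, and 25 of 34 such fits gave 4. The counts furthest off were 1 without young rat R1923, 2 without young rat R1922 or young rat R9876, 7 without AI rat R1931 and 8 without AU rat R2232. With no identifier series as covariate 3 calls were left, the C4 rows, and Gfap lost its call. With log2 recovered reads as covariate there were 5, the fifth being C3. Gfap also lost its call without young rat R1922, R1923, R2175 or R9876 (adjusted p up to 0.0794). The C4b row lost it without R1922, R1923, R9876 or R9879 (up to 0.116), and the second C4a row without R1923 (0.0546). The difference in recovered reads was -4186390 in R9 and 709545 in R1-R2. Series and subfield differences gave 0 calls in every setting run, among them the subfield differences with no replicate block (0), where 63 higher and 39 lower genes against CA3 and 354 genes against DG had an unadjusted p under 0.05. No paired analysis was possible because no rat was both young and aged. The R9, R1-R2, AI and AU fits hold fewer samples; the cause of the other shifts was not tested. Depth limits genes near the filter, which stood at 0 in some libraries.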
